A study of Mus musculus with 4 samples.

Results

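The p53 pathway and cell cycle inhibitor genes examined here are 38 mouse genes named beforehand. They comprise Trp53 with its 2 relatives and the Mdm regulators, 4 cyclin-dependent kinase (CDK) inhibitors, and targets of p53 that act in growth arrest, cell death, metabolism and DNA repair. They were found on the array by the RefSeq accession of each probe, which gave 63 probes for all 38 genes, among 22911 genes with a matched symbol. They were listed by name and not by a cutoff on measured values, but with earlier results of these data known. Of these, 35 genes were tested because a probe of theirs exceeded the background clearly on each array of ID8G cells, of GO2 cells or of both. The whole array gave 13215 such genes. Cdkn2a, Cdkn2b and Rprm were not among them.

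Messenger RNA was measured on 4 single-color Agilent arrays, 2 of ID8G cells (replicates ID8G_1 and ID8G_2) and 2 of GO2 cells (GO2_1 and GO2_2). ID8 is a mouse ovarian cancer line that arose from ovarian surface epithelial cells in culture, and ID8G cells are ID8 cells sorted for green fluorescent protein (GFP) after retroviral transduction. GO2 cells descend from ID8G cells through a pair of successive passages in the peritoneal cavity of female C57BL/6J mice, with CD45-GFP+ cells sorted from omental tumors each time. The mice were 7 to 9 weeks old at injection, both lines carry GFP, and both were grown in the same medium with 4% FBS and insulin, transferrin and selenite, with no drug or DNA-damaging treatment stated. Each group is therefore 1 cell line, a mixed population rather than a clone, and nothing states that the 2 arrays of a line came from separate cultures, so the p-values measure only the spread between arrays. All 4 arrays lay on 1 slide.

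The p53 protein, encoded by Trp53 in mice, is a transcription factor that is held at a low level by the ubiquitin ligase Mdm2 and its partner Mdm4 and is stabilized after DNA damage or other stress. It then turns on genes that stop the cell cycle, repair DNA, change metabolism or kill the cell. CDK inhibitors bind the kinases that drive the cycle: Cdkn1a (p21) is the best known p53 target among them, Cdkn1b (p27) responds to growth factors, adhesion and FoxO factors, and the Cdkn2a locus encodes p16Ink4a and p19Arf, the latter an inhibitor of Mdm2. Since p53 is controlled largely as a protein, the level of Trp53 mRNA alone does not report its activity.

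A subset of these genes was lower in GO2 cells, and none was higher by 2-fold. A log2 level is the log2 intensity of a probe minus the 75th percentile of its array, and a log2 difference is the mean level in GO2 cells minus that in ID8G cells. Each gene was read by its tested probe with the highest mean level. Levels of different probes are not comparable, so every comparison is within a probe. By limma with Benjamini-Hochberg adjustment over all probes, 4 of the 35 tested members (11.4%) were lower at an adjusted p below 0.05 and at least 2-fold, namely Perp, Sesn3, Gdf15 and Btg2, against 3.94% of all genes tested. By limma none was higher by this rule with its 2-fold limit, against 5.98% of all genes. The methods' t-test called no gene of the whole array higher after adjustment, so its lack of higher members carries no information. At an unadjusted p below 0.05 and any size, limma had 5 members higher and 17 lower, and the methods' t-test 3 higher and 14 lower. Of the higher ones, 0 reached 2-fold. The share of all genes at this threshold was not computed, so these unadjusted counts cannot be set against the array. At an adjusted p below 0.05 and any size, 15 members (42.9%) were lower, against 20.0% of all genes, and 2 members (5.71%), Fas and Ptpn14, were higher, against 21.0% of all genes. With any 1 array left out the member median lay between -0.21 and -0.12. Without the filter on dim probes 5 were lower, namely the 4 called genes and Sesn1, against 4.31% of all genes, and 0 were higher. The share of all genes higher without that filter was not computed, so this 0 cannot be set against the array. The median log2 difference over the 35 members was -0.15, with 28 (80%) below 0. Over all genes the median was -0.00041, with 50.1% below 0. With 2 arrays against 2, the smallest two-sided p of an exact permutation test is 0.333, so these calls rest on the spread that limma shares across probes. All 4 called genes stayed called when any 1 array was left out, but limma treat, which asks for a difference above 2-fold, called only Perp and Sesn3, and the methods' t-test called 0 after adjustment (14 members lower at an unadjusted p below 0.05).

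**Figure D1:**
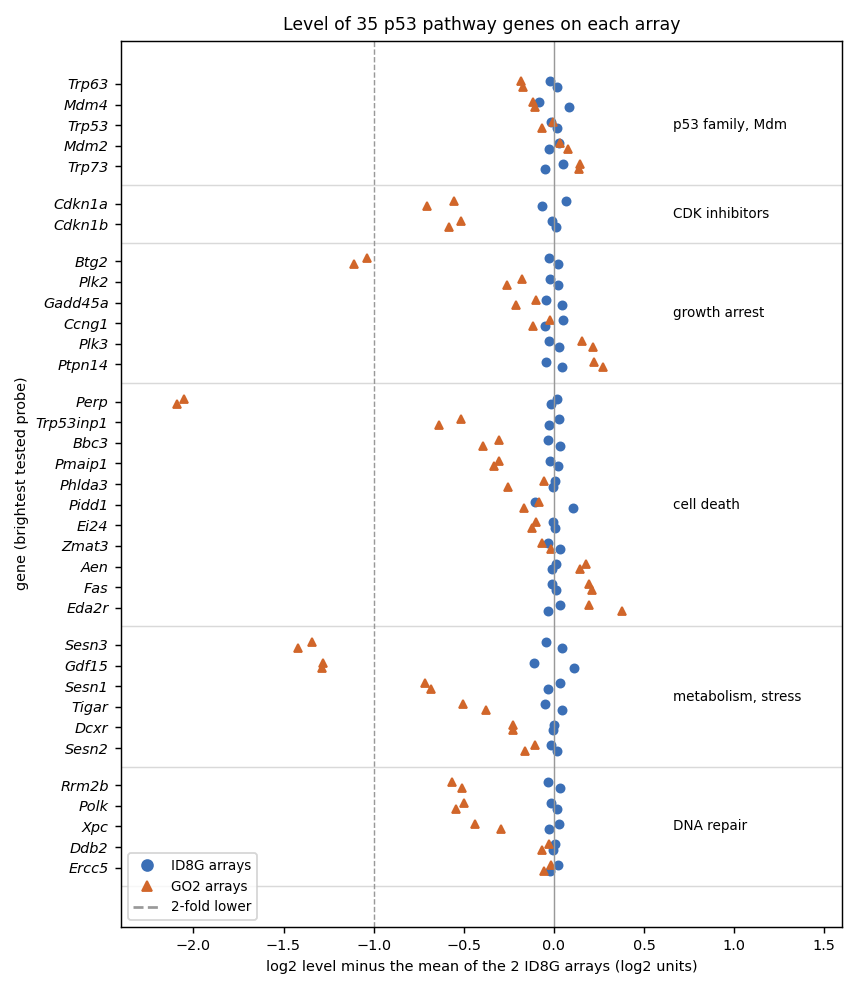
Log2 level of the brightest tested probe of each of 35 p53 pathway genes on each array, minus the mean of the 2 ID8G arrays (x axis, log2 units), with genes grouped by role (y axis). Circles are ID8G arrays, triangles are GO2 arrays and the dashed line marks 2-fold lower; only Perp, Sesn3, Gdf15 and Btg2 have both GO2 arrays beyond it.

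The order of the 4 arrays was the same for many members. Both GO2 arrays lay below both ID8G arrays in 23 members (65.7%), against 39.1% of all genes, and both lay above in 7 members (20.0%), against 39.3% of all genes. Levels were also scaled to the 7 spike-in transcripts that were above background on all arrays, in place of the 75th percentile. That scaling moved the median of all genes to -0.21 and the member median to -0.36. It shifts all genes of an array by the same amount, so the gap of -0.15 between these medians could not change. Under that scaling 19 members were lower at an adjusted p below 0.05 by limma, against 31.9% of all genes, and 0 were higher. The same 4 genes were called. A difference below 0 was found in 33 of 35 members, since Mdm2, Trp73, Plk3, Aen and Fas turned from above to below it. The array as a whole moved in the same direction. Under spike-in scaling the shares of all genes higher at any size, and of all genes below 0, were not computed. Those 2 member counts can therefore not be set against the array. Over the whole array this scaling gave 675 genes higher and 714 lower at 2-fold, against 790 higher and 521 lower with the 75th percentile. Changes below are therefore relative to the bulk of genes on the array.

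**Figure D2:**
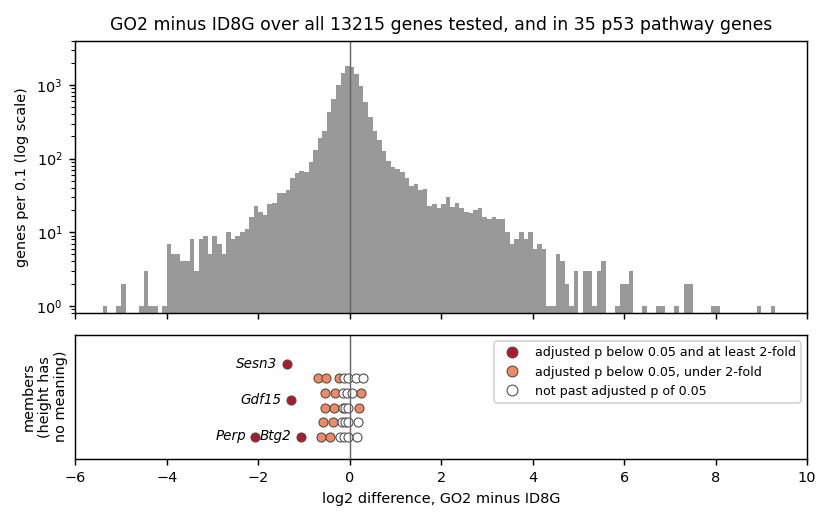
Number of genes per 0.1 of log2 difference, GO2 minus ID8G, over 13215 genes tested (upper panel, logarithmic y axis), and the differences of 35 p53 pathway genes on the same x axis (lower panel, where height has no meaning). Filled dark points are the 4 members called lower at 2-fold and light points the members past an adjusted p of 0.05 under 2-fold; members lie between -2.07 and 0.29, while genes of the array reach much further on both sides.

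Promoter sequences are shown for 3 of the 4 called genes and for Cdkn1a, because these genes are the ones the results turn on and because Cdkn1a is the standard p53 target. They come from RefSeq (GRCm38.p6), which gave windows of 300 bases, 250 before to 50 after a transcript start, for 30 of the 38 members by symbol; Perp has no entry. Printed are the 250 bases before the start, 5′ to 3′ on the strand of the gene, in lower case, with each p53 half-site in capitals. The half-site is the 10-base consensus of p53 response elements, whose pattern reads the same on both strands, so a match counts for both. Only exact matches to the pattern were counted or marked. Gdf15 is printed for its downstream start only. The bases before its upstream start (chr8:70632457-70632706) hold no half-site and are not printed.

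Btg2, chr1:134079156-134079405 (- strand): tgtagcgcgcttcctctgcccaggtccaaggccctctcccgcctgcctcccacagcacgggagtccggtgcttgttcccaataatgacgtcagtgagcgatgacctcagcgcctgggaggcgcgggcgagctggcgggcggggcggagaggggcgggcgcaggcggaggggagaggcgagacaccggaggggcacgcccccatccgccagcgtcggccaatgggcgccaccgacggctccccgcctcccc
Sesn3, chr9:14276051-14276300 (+ strand): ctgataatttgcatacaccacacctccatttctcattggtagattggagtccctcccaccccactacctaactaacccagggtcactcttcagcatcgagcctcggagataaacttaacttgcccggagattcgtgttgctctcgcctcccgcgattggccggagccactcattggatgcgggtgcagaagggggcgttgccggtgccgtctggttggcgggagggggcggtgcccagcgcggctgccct
Gdf15, chr8:70632096-70632345 (- strand): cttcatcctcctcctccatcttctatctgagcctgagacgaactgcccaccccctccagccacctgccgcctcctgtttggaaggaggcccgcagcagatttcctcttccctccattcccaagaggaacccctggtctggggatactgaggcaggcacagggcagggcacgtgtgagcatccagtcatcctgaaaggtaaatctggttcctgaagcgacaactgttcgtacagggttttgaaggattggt
Cdkn1a, upstream start, chr17:29090729-29090978 (+ strand): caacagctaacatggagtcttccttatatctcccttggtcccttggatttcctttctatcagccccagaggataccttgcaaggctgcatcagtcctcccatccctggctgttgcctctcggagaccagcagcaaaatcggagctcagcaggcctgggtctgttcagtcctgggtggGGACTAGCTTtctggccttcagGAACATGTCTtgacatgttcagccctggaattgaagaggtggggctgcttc
Cdkn1a, downstream start, chr17:29093519-29093768 (+ strand): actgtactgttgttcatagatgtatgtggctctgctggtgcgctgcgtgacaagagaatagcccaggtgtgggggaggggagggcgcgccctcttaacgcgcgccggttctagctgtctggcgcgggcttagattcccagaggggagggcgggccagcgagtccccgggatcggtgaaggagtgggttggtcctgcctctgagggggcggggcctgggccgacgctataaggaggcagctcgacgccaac

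Of the sequences shown, only that before the upstream start of Cdkn1a holds an exact match to the half-site, with 2 matches. Stretches that differ from the pattern at any base were not searched for, so the other sequences may hold such stretches. The match that lies closer to the start is followed directly by the bases tgacatgttc, whose reverse complement shares 9 of 10 letters with it. The half-site occurred in 10 of 40 member windows (25%), belonging to 9 genes (Aen, Ccng1, Cdkn1a, Ei24, Gadd45a, Mdm2, Polk, Sesn1 and Trp53), and in 8.36% of all 32851 windows. The windows of Aen overlap, so a match may be counted in both. Most members were listed as known p53 targets, so the member share is not that of an unselected list. Among the 9 genes with a half-site, Cdkn1a, Polk and Sesn1 were lower at an adjusted p below 0.05, against 20.0% of all genes. The other 6 did not pass it. Cdkn1a, Polk and Sesn1 each also had a window without the half-site. Whether the half-site goes with the difference was not tested. Matches are matches of letters in a short window and not sites of binding, which may also lie in introns or further away.

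Trp53 and its immediate regulators did not pass the test in either direction. Trp53 had levels of 1.84 and 1.87 in ID8G cells and of 1.85 and 1.79 in GO2 cells. The arrays of the lines overlapped, with a log2 difference of -0.03 ± 0.055 (SE, n = 2 arrays per line) and an adjusted p of 0.652 by limma. Mdm2, the main ligase for p53 and itself a p53 target, had levels of 4.30 and 4.25 in ID8G cells and of 4.31 and 4.35 in GO2 cells, a difference of 0.05 (adjusted p = 0.48), which turned to -0.15 under spike-in scaling (adjusted p = 0.338). Its other probe gave -0.16 (adjusted p = 0.215). Mdm4, which binds and inhibits p53, was read by 4 probes with differences from -0.17 to -0.03, none of which passed. Its brightest probe read -0.60 and -0.43 in ID8G cells and -0.64 and -0.62 in GO2 cells, a difference of -0.11 (adjusted p = 0.315). The p53 relatives Trp63 and Trp73 differed by -0.18 (adjusted p = 0.0616) and 0.14 (adjusted p = 0.142), each on 1 probe, and their 1 and 2 further probes were not above background on any array.

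The CDK inhibitors divided into a pair that was lower and a pair without signal. Cdkn1a, which blocks CDK2 complexes, had levels of 0.98 and 0.85 in ID8G cells and of 0.36 and 0.21 in GO2 cells. Both GO2 arrays lay below both ID8G arrays, 1.55-fold lower (log2 difference -0.63 ± 0.084, adjusted p = 0.00972). Its dimmer probe (A_55_P1986282) read -3.47 and -3.33 in ID8G cells and -5.44 and -4.49 in GO2 cells, where neither array placed it well above background. The difference on that probe passed the 2-fold rule (-1.57, adjusted p = 0.032), but since the GO2 arrays give only a limit, the probe was at least 1.34-fold lower in GO2 cells, taking per array the higher of its own level and the lowest level called above background. Cdkn1b, which holds cells in quiescence, had levels of 3.62 and 3.65 in ID8G cells and of 3.12 and 3.05 in GO2 cells, 1.46-fold lower (-0.55 ± 0.055, adjusted p = 0.00471). Without the filter on dim probes neither passed, with adjusted p = 0.067 for Cdkn1a and 0.051 for Cdkn1b.

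Cdkn2a and Cdkn2b, the neighboring genes of p16Ink4a with p19Arf and of p15Ink4b, were not well above background on any of the 4 arrays with either of the 2 probes of each gene. The 2 probes of Cdkn2a read between -6.15 and -5.84 and those of Cdkn2b between -6.13 and -5.79. The median of the 308 negative control spots lay between -6.05 and -5.75 on the same arrays, and the lowest level called above background between -3.85 and -3.53. No direction can therefore be given for either gene. In the RefSeq order Mtap, an enzyme of methionine salvage, lies on 1 side of this pair and Dmrta1 on the other. Mtap was measured on all arrays, at 5.58 and 5.61 in ID8G cells and 5.50 and 5.50 in GO2 cells (-0.09, adjusted p = 0.217). Klhl9, further out on the side of Mtap, was 1.29-fold higher in GO2 cells (0.37, adjusted p = 0.027), whereas Dmrta1 and Elavl2 on the other side were not above background on any array. RNA levels do not show whether a gene is present in the genome, which was not measured here.

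**Figure D3:**
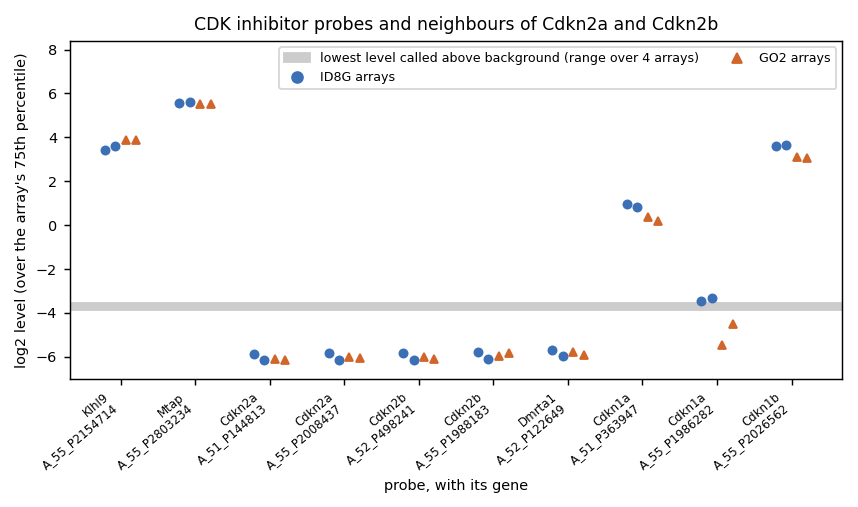
Log2 level of each probe (y axis, over the array's 75th percentile) for the CDK inhibitors among the members and for neighbors of Cdkn2a and Cdkn2b (x axis). Circles are ID8G arrays, triangles GO2 arrays, and the band spans the lowest level called above background on the 4 arrays, -3.85 to -3.53; all probes of Cdkn2a, Cdkn2b and Dmrta1 lie below it on every array, and the dimmer Cdkn1a probe crosses it between the lines.

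Among 6 tested growth arrest and checkpoint targets, only Btg2 was lower and only Ptpn14 higher at an adjusted p below 0.05, against 20.0% and 21.0% of all genes. Btg2, an antiproliferative adaptor of the mRNA deadenylation complex, had levels of 1.81 and 1.86 in ID8G cells and of 0.80 and 0.73 in GO2 cells. It was 2.11-fold lower (-1.07 ± 0.058, adjusted p = 0.000993), and its other probe gave -1.04 (adjusted p = 0.00132). Ccng1, cyclin G1 and a strong p53 target, read 3.07 and 2.97 in ID8G cells against 3.00 and 2.91 in GO2 cells. The lines overlapped for Ccng1, with a difference of -0.07 (adjusted p = 0.478). Gadd45a, a stress sensor that promotes arrest and repair, read 0.26 and 0.34 in ID8G cells against 0.20 and 0.09 in GO2 cells, a difference of -0.15 (adjusted p = 0.159). The polo-like kinases Plk2 and Plk3 differed by -0.22 (adjusted p = 0.0526) and 0.19 (adjusted p = 0.0706). Probes of Ptpn14, a tyrosine phosphatase that restrains YAP, disagreed, with 0.25 (adjusted p = 0.0426) and 0.42 (adjusted p = 0.0193) on a pair of probes and -0.17 (adjusted p = 0.207) on the third. The brightest probe of Ptpn14 lost the threshold with any 1 array left out, and under spike-in scaling it gave 0.04 (adjusted p = 0.797). Rprm, which arrests cells before mitosis, was above background on 1 ID8G array only, with levels of -4.96 and -2.99 in ID8G cells and -6.10 and -5.66 in GO2 cells, and was not tested.

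The cell death targets held the largest difference of all members and, apart from it, differences under 2-fold. Perp, a tetraspan membrane protein that is a target of p53 in cell death and of p63 in epithelia, where it belongs to desmosomes, had levels of 5.08 and 5.05 in ID8G cells and of 3.01 and 2.97 in GO2 cells. The means were 5.06 ± 0.021 in ID8G cells and 2.99 ± 0.028 in GO2 cells (SD, n = 2 arrays), so that Perp was 4.20-fold lower (-2.07 ± 0.052, SE, adjusted p = 0.000254). Bbc3, which encodes the proapoptotic BH3-only protein PUMA, read 1.41 and 1.48 in ID8G cells against 1.14 and 1.05 in GO2 cells. It was 1.28-fold lower without overlap (-0.35, adjusted p = 0.0202). Pmaip1, which encodes the BH3-only protein NOXA, was lower by a similar margin (-0.32, adjusted p = 0.0163), and Trp53inp1, a stress-induced nuclear protein, fell by 0.58 (adjusted p = 0.00703) and by 0.59 on its other probe (adjusted p = 0.0201). In all, 4 of 11 cell death targets were lower and 1, the death receptor Fas, was higher, against 20.0% and 21.0% of all genes.

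Fas stood 0.20 higher in GO2 cells (adjusted p = 0.0426), a sign that turned to -0.0039 under spike-in scaling, and it did not pass with any 1 array left out. Its other probe was above background on 1 GO2 array only. Of the 6 targets that did not pass, Phlda3, Ei24, Zmat3 and Pidd1 had differences between -0.15 and -0.04 and Aen and Eda2r, a receptor of the tumor necrosis factor family, had 0.16 and 0.29. The probes of Pidd1, an adaptor that activates caspase-2, disagreed: the brightest gave -0.12 (adjusted p = 0.352) and the other -0.60 (adjusted p = 0.0115).

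Of 6 metabolic and stress targets, 5 were lower at an adjusted p below 0.05, against 20.0% of all genes, 2 of them at 2-fold, and the median was -0.57. Sesn3, a sestrin that restrains mTORC1 signaling and is also a target of FoxO factors, had levels of 0.69 and 0.78 in ID8G cells and of -0.61 and -0.68 in GO2 cells. It was 2.60-fold lower (-1.38 ± 0.065, adjusted p = 0.000726). Gdf15, a secreted stress cytokine that acts on the brainstem receptor Gfral and is also induced by the integrated stress response, read 0.19 and 0.41 in ID8G cells against -0.98 and -0.99 in GO2 cells. It was 2.43-fold lower (-1.28 ± 0.092, adjusted p = 0.00203), and its ID8G arrays lay further apart than those of the other called genes. Among the other sestrins, Sesn1 fell by 0.70 (1.62-fold, adjusted p = 0.00261), while Sesn2 differed by -0.13 (adjusted p = 0.132). Tigar, which lowers glycolytic flux, fell by 0.44 (adjusted p = 0.0174) and the xylulose reductase Dcxr by 0.23 (adjusted p = 0.0316).

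DNA repair targets gave 3 lower of 5 tested at an adjusted p below 0.05, against 20.0% of all genes, with a median of -0.37. Rrm2b, the p53-inducible subunit of ribonucleotide reductase, fell by 0.54 (adjusted p = 0.00572). Xpc, which recognizes damage in nucleotide excision repair, fell by 0.37 (adjusted p = 0.0264) and by 0.49 on its other probe (adjusted p = 0.0192). Polk, a translesion DNA polymerase, had levels of 0.78 and 0.81 in ID8G cells and of 0.30 and 0.25 in GO2 cells on its brightest probe, 1.43-fold lower (-0.52, adjusted p = 0.00485). Another Polk probe (A_55_P2730786) read -3.04 and -3.48 in ID8G cells and -4.30 and -4.52 in GO2 cells, where it was not above background. That probe passed the 2-fold rule (-1.15, adjusted p = 0.0139) but gives only a limit of at least 1.48-fold lower, and the third Polk probe did not pass (-0.32, adjusted p = 0.253). Ddb2 and Ercc5, a damage sensor and an endonuclease of the same repair pathway as Xpc, differed by -0.05 (adjusted p = 0.519) and -0.03 (adjusted p = 0.644).

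Of 40 further p53 targets, 36 were tested, with 8 higher and 8 lower at an adjusted p below 0.05, shares close to the 21.0% and 20.0% of all genes. Their median was 0.13, which is below 0 under spike-in scaling. At 2-fold 3 were lower, among them Kank3, which fell by 2.26 (adjusted p = 0.000289), and Ddit4, an mTORC1 inhibitor, which fell by 1.80 (adjusted p = 0.000296). Likewise 3 were higher: Ak1 rose by 2.49 (adjusted p = 0.000208), the matricellular protein gene Thbs1 by 2.07 (adjusted p = 0.000248), and Pltp, a lipid transfer protein whose probe was not above background in ID8G cells, was at least 10.6-fold higher (adjusted p = 0.000182). The 24 upstream kinases, cofactors and ubiquitin ligases differed by -0.48 to 0.31, with 2 higher and 5 lower at an adjusted p below 0.05 and a median of -0.0088. The ribosomal protein gene Rpl11 in that list, whose product binds Mdm2, differed by 0.04 (adjusted p = 0.578).

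**Figure D4:**
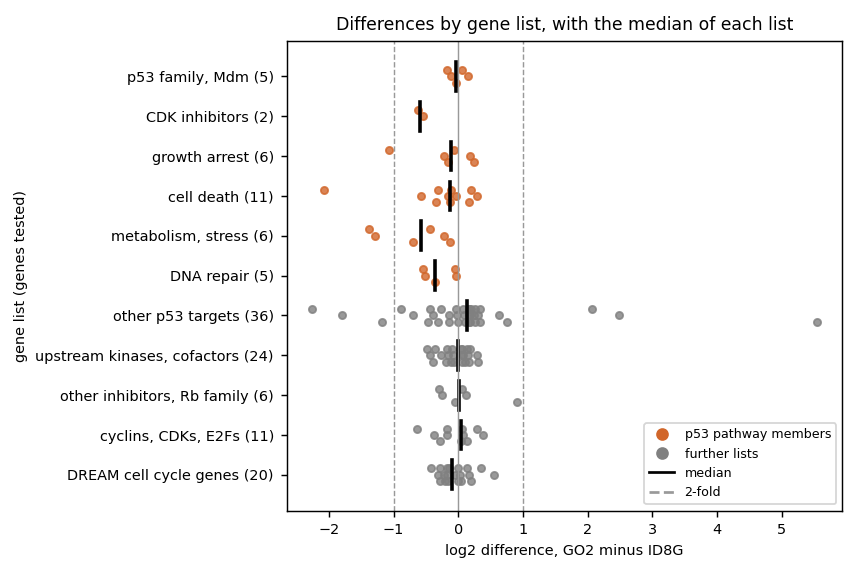
Log2 difference, GO2 minus ID8G (x axis), of each tested gene in the role groups of the members (colored points) and in further lists of the pathway (gray points), with the number of genes tested in parentheses and a black bar at the median. Medians lie at -0.59 for the CDK inhibitors, -0.57 for the metabolic and stress targets and -0.37 for the repair targets, and between -0.12 and 0.13 for the other lists; the point furthest to the right is Pltp, whose fitted value is no measure of its size because ID8G cells gave no signal above background.

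The cell cycle machinery on which the inhibitors act differed by less than 2-fold in every gene tested, between -0.63 for Ccnd2 and 0.91 for Cdkn2c. Of 6 tested further CDK inhibitors and retinoblastoma family genes, 1 was higher and 1 lower at an adjusted p below 0.05. Cdkn2c (p18Ink4c), an inhibitor of CDK4 and CDK6, was the higher one, at 2.56 and 2.49 in ID8G cells and 3.46 and 3.40 in GO2 cells, 1.87-fold higher (0.91, adjusted p = 0.0016). Of 11 cyclins, CDKs and E2F factors, 2 were higher and 3 lower, with Ccnd2 (cyclin D2) 1.55-fold lower (-0.63, adjusted p = 0.00255) and Ccnd3 1.29-fold lower (-0.37, adjusted p = 0.0104). Among 20 cell cycle genes that p53 represses through the DREAM complex, 2 were higher and 4 lower, with a median of -0.09. In these lists and that of the upstream genes, the shares stand against 21.0% higher and 20.0% lower of all genes. The proliferation marker Mki67 and the survivin gene Birc5 did not pass, at -0.15 (adjusted p = 0.0943) and 0.03 (adjusted p = 0.782).

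Markers of cell identity also differed between the lines, and their part in the results above was not tested. In the epithelial and mesothelial list 7 of 8 genes were tested, 4 were lower and 1 higher at an adjusted p below 0.05, and Krt7 was not above background on any array. For this list and those below, the shares of all genes at that threshold were 20.0% lower and 21.0% higher. Krt19, an epithelial keratin, fell by 1.65 (adjusted p = 0.000341) and the mesothelial gene Upk3b rose by 1.08 (adjusted p = 0.000787). The summed linear level of that list, in units of the 75th percentile, was 662 and 655 in ID8G cells and 373 and 377 in GO2 cells. In the fibroblast list 6 of 10 genes were tested. Of these, 5 were higher at 2-fold, against 5.98% of all genes, among them Col1a2 by 7.49, Col1a1 by 4.69 and Col3a1 by 4.20, all collagen genes. The summed level was 71.4 and 68.6 against 150.2 and 150.6, whereas Dcn fell by 0.63 (adjusted p = 0.00309) and Lum, Thy1, Fap and Postn were not above background on any array. These sums add different probes and so follow the brightest ones. In ID8G cells the fibroblast sum was mostly Dcn, at log2 levels of 6.07 and 6.01, against 1.30 and 1.33 for Col1a1. Of 8 macrophage and leukocyte genes, Ptprc, which encodes CD45, and Adgre1, Lyz2 and Mrc1 were not above background on any array. Itgam, Csf1r, Cd14 and Cd68 were measured on all arrays, and of these Cd14 fell by 0.69 (adjusted p = 0.0021) while the others did not pass. The summed level was 22.3 and 25.1 against 21.7 and 21.8. Of 7 lymphocyte, 5 endothelial and 5 adipocyte genes, only Cd4 (-0.07), Cd3e (0.18), Pecam1 (0.08) and Lep (-0.04) were tested and none passed an adjusted p of 0.05, the lowest being 0.177 for Cd3e. In cultures measured in bulk, fewer cells of a type and less RNA per cell cannot be told apart.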

How the data were processed

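RNA of 2 cell lines was measured on 4 arrays. The scanner files that the authors deposited hold linear spot intensities from Feature Extraction 11.5.1.1, corrected for background but without normalization across arrays, beside marks for outliers, saturation and signal well above background. A value table, also deposited, gives log2 values that the authors made in GeneSpring by 75th-percentile scaling and subtraction of the probe median, and it served for 1 alternative. Its column medians were 0.10, -0.05, 0.04 and -0.05 for ID8G_1, ID8G_2, GO2_1 and GO2_2, and after centering of the levels computed here it differed from them by at most 0.0054. Of its per-sample columns, 0 were unused.

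Spots marked as outliers were left out, spots of a probe were averaged, and levels were the log2 intensity minus the 75th percentile over probes other than controls. A probe was tested if every array of 1 line or the other had it well above background (28370 of 56605 probes, 26 of them with a missing array). Cell line was the single term of a limma fit (version 3.58.1, R 4.3.3), which was tested on simulated arrays with planted changes. A call needed a minimum log2 difference of 1 together with an adjusted p (Benjamini-Hochberg) below 0.05. Symbols came from RefSeq accessions for 32994 probes (58.3%). Figures were drawn with matplotlib 3.10.9 in python 3.11.15. The array design is for mm9, so RefSeq served for names, gene order and promoters only.

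The members and lists were chosen with earlier results of these data known. Values on every array are given for members called by any probe and for 10 central genes (Trp53, Mdm2, Mdm4, Cdkn1a, Cdkn1b, Cdkn2a, Cdkn2b, Ccng1, Bbc3 and Gadd45a). Replicate arrays correlated at 0.997 in both lines, and the number of arrays limits the precision. Replicate numbers did not pair the arrays, since deviations of arrays with the same number correlated at 0.027. The alternatives are given with their effects at the end. From each further list at most the 3 called genes with the largest difference and the 3 with the highest level are named. Thbs1, Cd68, markers without signal and neighbors of Cdkn2a are named besides. In the desmosome and FoxO lists, read after the member values were seen, every tested gene is named. Of the called genes, 1 gene of these lists is not reported here.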

Additional observations from a re-analysis of the deposited data

How the results depend on the processing

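Perp, Sesn3, Gdf15 and Btg2 were called lower under 16 of 18 alternatives, the exceptions being limma treat (2 called, Perp and Sesn3) and the methods' t-test (0 called); the mean over the probes of a gene added Cdkn1a (5 called). Members higher at an adjusted p below 0.05 rose from 2 to 4 with an intensity trend. They fell to 0 with normexp background correction, median centering, spike-in scaling, no filter on dim probes and the replicate block. The methods' t-test and limma treat also gave 0. Shares of all genes higher at any size were not computed for these settings, so the 0 cannot be set against the array. Members lower by the same rule fell from 15 to 5 with no filter on dim probes, while the share of all genes lower fell from 20.0% to 4.31%. They fell to 2 with limma treat and 0 with the methods' t-test. The replicate block gave 12 lower and 4 called. Spike-in scaling moved the member median to -0.36 and reversed Fas to -0.0039. With 1 array left out the member median lay between -0.21 and -0.12.

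Genes called over the whole array were 449 higher with signal required on all 4 arrays, 491 higher and 277 lower with limma treat, and 0 higher and 3 lower with the methods' t-test (645 higher and 422 lower at 2-fold and an unadjusted p below 0.05), and with 1 array left out 755 to 811 were higher and 512 to 545 lower. Of 468 values of 26 members and 18 alternatives, 372 stayed on their side of the threshold, 81 no longer passed, 14 newly passed and 1 that had passed reversed (Fas). The sign also turned in 3 values of Mdm2 that did not pass under either setting, to -0.15 with spike-in scaling, -0.01 with normexp and -0.05 with the mean over probes. The cause of these moves was not tested. All arrays lay on 1 slide, so the slide could not be fitted as a block. Genes near background give limits only: 8583 genes (37.5%) had no probe above background on any array.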

Other observations

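Further gene groups were looked at after the values of the members were seen, and they are given as values. Because Perp is a desmosome protein, 10 desmosome genes were read in the same fit. Of 7 tested, 4 were lower and 0 higher at an adjusted p below 0.05 by limma, against 20.0% and 21.0% of all genes, with a median log2 difference of -0.37, and 1 was called at 2-fold. Plakophilin 1 (Pkp1) fell by 2.89 (adjusted p = 0.00094), while the plakophilin Pkp2 and desmoglein Dsg2 fell by 0.68 (adjusted p = 0.00515) and 0.65 (adjusted p = 0.00389), and plakoglobin (Jup) by 0.36 (adjusted p = 0.0145). Desmoplakin (Dsp) differed by -0.37 (adjusted p = 0.0911), Pkp4 by 0.01 (adjusted p = 0.868) and Dsc3 by 0.26 (adjusted p = 0.454).

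Cdkn1b, Sesn3, Btg2 and Gadd45a are also known as FoxO targets, so 12 FoxO factors and other target genes were read. Of 11 tested, 6 were lower and 2 higher at an adjusted p below 0.05, against 20.0% and 21.0% of all genes, with a median of -0.20. Txnip, an inhibitor of thioredoxin, fell by 1.30 (adjusted p = 0.000913), Ccng2 (cyclin G2) by 0.83 (adjusted p = 0.00178) and the mTORC2 component Rictor by 0.52 (adjusted p = 0.00562). Bcl6 fell by 0.50 (adjusted p = 0.0128) and Pdk4 by 0.20 (adjusted p = 0.0466), whereas Cited2 rose by 0.20 (adjusted p = 0.045). Klf6 (-0.18, adjusted p = 0.0718), Insr (-0.20, adjusted p = 0.803) and Irs2 (0.01, adjusted p = 0.923) did not pass. Of the factors, Foxo1 rose by 0.50 (adjusted p = 0.00664) and Foxo3 fell by 0.43 (adjusted p = 0.0142), and Foxo4 was not above background on any array.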
